A study of Mus musculus with 12 samples.

Results

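Axon guidance ligands and receptors are proteins that steer growing axons and migrating cells, and 50 of their genes were followed here in normal mouse pituitary and in pituitary tumors of POMC knockout (KO) mice. The genes were given as a list and not chosen by their values: 10 Eph receptors, 8 ephrins, 12 semaphorins, 9 plexins and neuropilins, 5 slits and Robo receptors, and 6 netrins and netrin receptors. Of these 50 genes, among 18193 on the array, 49 had a probe set (a group of short probes read as 1 value) that named the gene alone. Ephb2 had none and was not analysed here. Where a gene had several probe sets, the one with the highest mean over the 12 arrays stood for it.

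In each of these families a ligand, secreted or held on a cell surface, binds a receptor that changes the cytoskeleton of the receiving cell and so attracts or repels it. Eph receptor tyrosine kinases bind the membrane-bound ephrins, and ephrins can also signal back into their own cell. Semaphorins bind plexins, with neuropilins as co-receptors for most secreted class 3 semaphorins. Slits bind Robo receptors, and netrins bind Dcc, Neo1 and the Unc5 receptors. Outside the nervous system the same families pattern blood vessels and keep cell populations apart, and the pituitary holds nerve endings of the hypothalamus in its posterior lobe as well as vessels and endocrine cells.

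RNA of pituitary tissue was measured on 12 Affymetrix whole-genome mouse arrays, 8 from mice heterozygous for a POMC knockout, 2 from homozygous POMC knockout mice and 2 from normal mouse pituitary. The mice were untreated, the knockout tissue was tumor that arose spontaneously, and the methods call the normal pituitary pooled. Strain, age and sex of the mice, and how many animals stand behind an array, are not given in the sources used here. The tumor arrays fell into 5 pairs, numbered 1-2, 3-4, 5-6 and 7-8 in heterozygous and 1-2 in homozygous mice. Over the 24486 probe sets that passed the filter described below, arrays of a pair correlated at 0.997, with 0 to 2 probe sets more than 2-fold apart. Different heterozygous pairs correlated at 0.964 to 0.983 and the 2 normal arrays at 0.986. Each pair was therefore counted as 1 sample, which gave heterozygous tumors 1 to 4, 1 homozygous tumor and 2 normal pituitary samples. Whether these came from separate animals is not stated, so p-values measure the spread between these samples, and the homozygous tumor has no replicate of its own.

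All values are log2 signals after Robust Multichip Average (RMA) processing, on which a difference of 1 is a 2-fold change, and values of different genes are not compared with each other because each probe set binds differently. The targeted gene followed the homozygous label: Pomc was at 15.28, 15.30, 15.27 and 15.15 in heterozygous tumors 1 to 4 and at 15.08 and 15.11 in normal pituitary, but at 7.18 in the homozygous tumor (log2 fold change against normal -7.92, limma adjusted p = 1.11e-06). Heterozygous tumors did not differ from normal pituitary in Pomc by this test (log2 fold change 0.16, adjusted p = 0.33). Whether signals this high could still show a difference was not tested. Xist, the RNA that coats the inactive X chromosome in females, was high in heterozygous tumors 2 (10.93) and 4 (11.25) and in the homozygous tumor (11.20), and low in heterozygous tumors 1 (4.58) and 3 (5.0) and in normal pituitary (5.07 and 4.57). Heterozygous tumors thus hold both levels of Xist, whereas genotype and Xist level cannot be told apart in the homozygous tumor.

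A probe set was tested where 2 or more arrays reached 5.74, the median over all arrays, and a gene was called where the Benjamini-Hochberg adjusted p of limma was under 0.05 and the change exceeded 2-fold. Of the guidance genes, 41 were tested, and 8 stayed under the filter, namely Epha3, Epha4, Efna3, Efna4, Efnb3, Sema3d, Sema7a and Robo2. In heterozygous tumors 8 of the 41 were called, where 10.1% of all 12305 genes tested were called. The netrin gene Ntn1 and its receptor Dcc were higher than in normal pituitary. Epha7, Ephb1, Efnb2, Plxna2, Robo1 and Unc5c were lower. Of all genes tested, 5.57% were called higher and 4.5% lower. With the fold threshold set aside, 18 of the 41 had an adjusted p under 0.05 (6 higher and 12 lower), where 24.2% of all genes tested did. The median log2 fold change of the 41 was -0.20, beside 0.00167 over all genes tested, and it was -0.22 over the 49 genes on the array. Ephb1, Ephb4 and Slit3 passed the filter through the normal arrays alone, so they had to be lower in tumors, and without them 7 of 38 were called and the median was -0.09. Epha7, still among these, passed through the normal and homozygous arrays. No heterozygous array reached the median for it, so it could pass only where other groups were higher. All 4 heterozygous tumors lay below both normal samples in 19 of the 41 genes and above both in 7, where 25.6% and 25.4% of all genes tested did so.

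**Figure D1:**
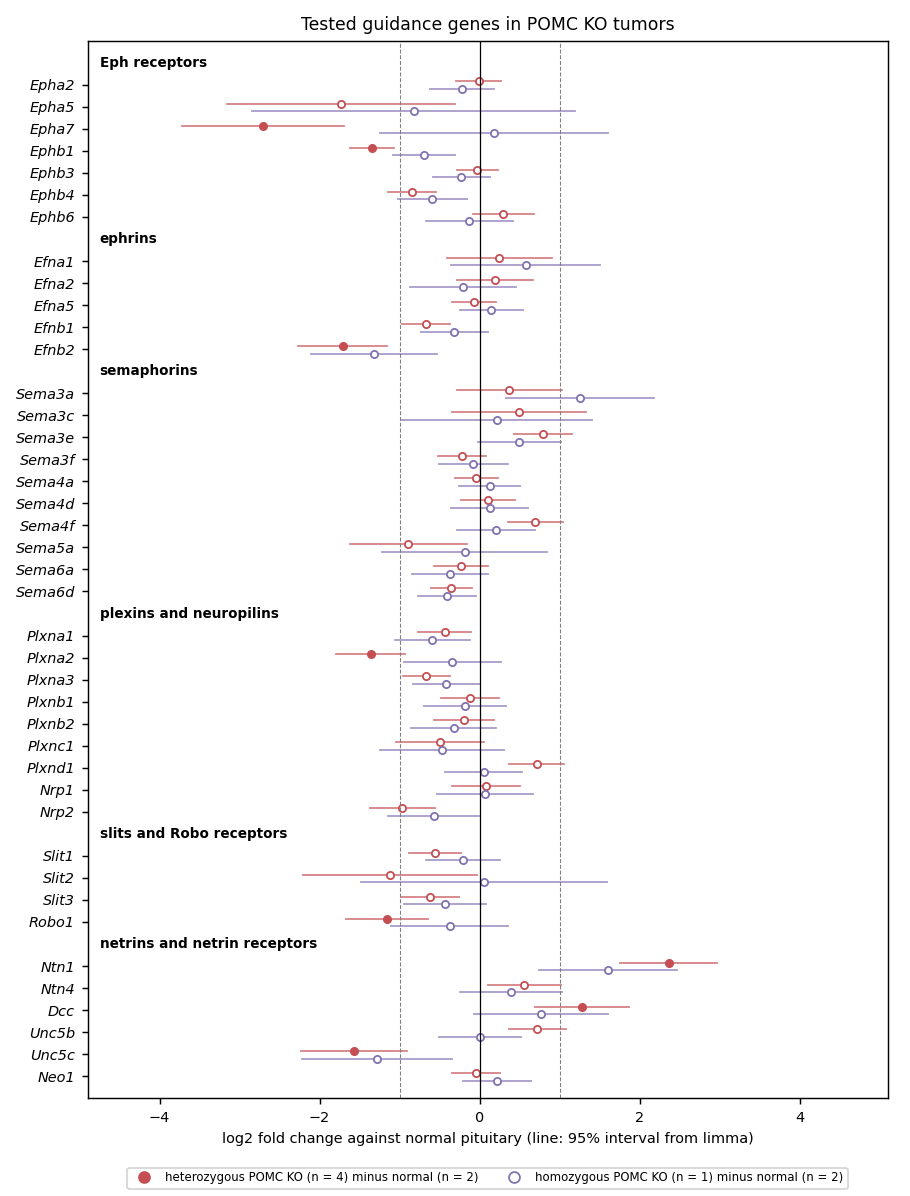
The plot shows the log2 fold change against normal pituitary for each of the 41 tested guidance genes, by family, in heterozygous tumors (red, n = 4) and in the homozygous tumor (purple, n = 1), each against 2 normal samples. Lines are 95% intervals from limma, filled points are called genes, and dashed lines mark 2-fold. Filled points appear for 8 genes in heterozygous tumors and for none in the homozygous tumor, and Epha7 and Ntn1 lie farthest from 0.

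The bases just before the start site are shown for 3 of the lower genes, to set their sequence beside the direction they share. RefSeq windows of 250 bases upstream of the start (build GRCm38.p6) were at hand for 43 of the 50 genes, which had 55 such windows. They were searched for the GC box, GGGCGG or CCGCCC on the reverse strand, which factors of the Sp family bind. The windows printed are those of Epha7 (chr4:28812881-28813130, plus strand), Plxna2 (chr1:194619579-194619828, plus strand) and Unc5c (chr3:141465314-141465563, plus strand), which hold 1, 2 and 0 GC boxes and were chosen for that spread. Capitals mark the GC box.
Epha7: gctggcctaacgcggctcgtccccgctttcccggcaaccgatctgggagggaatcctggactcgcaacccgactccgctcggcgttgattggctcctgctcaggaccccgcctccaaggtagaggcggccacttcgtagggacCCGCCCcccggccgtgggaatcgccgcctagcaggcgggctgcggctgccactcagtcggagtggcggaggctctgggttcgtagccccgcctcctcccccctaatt
Plxna2: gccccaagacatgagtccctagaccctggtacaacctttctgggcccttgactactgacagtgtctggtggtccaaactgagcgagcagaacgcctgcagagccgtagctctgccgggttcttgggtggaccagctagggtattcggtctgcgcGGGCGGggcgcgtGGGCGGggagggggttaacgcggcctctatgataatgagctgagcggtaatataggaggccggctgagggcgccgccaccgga
Unc5c: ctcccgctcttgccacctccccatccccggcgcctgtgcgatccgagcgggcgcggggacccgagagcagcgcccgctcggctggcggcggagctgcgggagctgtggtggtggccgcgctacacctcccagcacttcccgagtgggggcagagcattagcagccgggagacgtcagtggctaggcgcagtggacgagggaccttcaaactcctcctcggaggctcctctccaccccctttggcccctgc
All 3 are rich in G and C, at 69.2%, 62.8% and 71.2%, and hold 25, 18 and 23 CpG dinucleotides. The windows of all genes tested had medians of 60% and 15, and 2 of the other lower genes lay under these, Ephb1 at 54% with 10 CpG and Robo1 at 56% with 11, whereas Efnb2 was at 72% with 27. A GC box occurred in 4 of the 7 windows of the 6 lower genes (57.1%, Epha7 having a pair of overlapping windows), in 57.2% of 12774 windows of all genes tested, in 69.1% of the windows of all guidance genes, and in 32.7% of 32851 windows genome-wide. The share in the lower genes was thus that of the tested genes at large, and a match in these letters is not a binding site shown to be used. Of the other motifs searched on both strands, the E box CANNTG occurred in 41.8% of the guidance gene windows and 57.9% of those of genes tested. The bicoid-type site, GGATTA or TAATCC, occurred in none of the 55 windows and in 4.93% of those of genes tested.

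Netrins and netrin receptors held both called increases. Ntn1, the secreted netrin best known for guiding commissural axons, was at 9.77, 9.30, 9.68 and 8.84 in heterozygous tumors 1 to 4, 8.64 in the homozygous tumor and 6.90 and 7.17 in normal pituitary. The groups did not overlap, and all 5 tumor samples stood above both normal samples. The heterozygous log2 fold change was 2.36 ± 0.26 (SE, n = 4 against 2, adjusted p = 0.00128), which is 5.14-fold. Dcc, the receptor through which netrin attracts axons, was at 10.21, 9.73, 10.22 and 9.35 in heterozygous tumors, 9.36 in the homozygous tumor and 8.60 and 8.58 in normal pituitary. Again every tumor was above both normal samples, with heterozygous tumor 4 and the homozygous tumor nearest to them (heterozygous log2 fold change 1.28 ± 0.25, adjusted p = 0.0116). The call for Dcc was lost when either normal sample was left out, with adjusted p = 0.0794 without normal sample 1 and 0.0757 without normal sample 2 at log2 fold changes of 1.29 and 1.27.

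Unc5c, a receptor for netrin-driven repulsion, moved the other way. It was at 6.54, 6.87, 6.27 and 7.33 in heterozygous tumors, 7.04 in the homozygous tumor and 8.51 and 8.14 in normal pituitary, so all tumors were below both normal samples (heterozygous log2 fold change -1.57 ± 0.28, adjusted p = 0.00849). Without normal sample 1 the adjusted p of Unc5c was 0.0798 at a log2 fold change of -1.38. Unc5b, a related receptor studied mainly in blood vessels, was at 6.87, 6.89, 6.53 and 6.59 in heterozygous tumors, 6.0 in the homozygous tumor and 5.87 and 6.12 in normal pituitary. The heterozygous change, on the log2 scale, of 0.72 had an adjusted p of 0.0158 but stayed under 2-fold, and the homozygous tumor lay between the normal samples. Ntn4, a netrin of basement membranes, had a log2 fold change of 0.56 ± 0.19 (adjusted p = 0.0788), and Neo1, a receptor related to Dcc, one of -0.05 (adjusted p = 0.827). Over the 6 genes of the netrin group the median log2 fold change was 0.64, with 2 called higher and 1 lower.

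Among slits and Robo receptors, Robo1 was called. Robo1, a slit receptor, was at 5.80, 6.36, 6.59 and 6.38 in heterozygous tumors, 7.06 in the homozygous tumor and 7.56 and 7.32 in normal pituitary, with tumor 1 lowest and no overlap between the genotypes (heterozygous log2 fold change -1.16 ± 0.22, adjusted p = 0.0102). The call was lost without normal sample 1 (log2 fold change -1.03, adjusted p = 0.0894), and without the arrays numbered 1 and 2 the change fell just short of 2-fold (-0.99, adjusted p = 0.00736). The ligand Slit2 was at 7.08, 8.91, 7.67 and 8.49 in heterozygous tumors, 9.21 in the homozygous tumor and 9.12 and 9.19 in normal pituitary. All heterozygous tumors lay below normal for Slit2, but tumors 2 and 4 were close to it, and the log2 fold change of -1.12 ± 0.46 did not pass (adjusted p = 0.127). Tumors 2 and 4 are those with high Xist, and with Xist as a covariate the log2 fold change of Slit2 was -1.77 (adjusted p = 0.00323). That fit sets 2 heterozygous tumors against 2, and whether Xist level accounts for the spread in Slit2 was not tested. The homozygous tumor was at the level of normal pituitary for Slit2. Slit3 and Slit1, the other slits, had log2 fold changes of -0.61 (adjusted p = 0.0292) and -0.56 (adjusted p = 0.0284), both under 2-fold. The median over the 4 tested genes of this family was -0.87, and -1.12 without Slit3, which passed the filter through the normal arrays alone. Robo2, which stayed under the filter, was at 2.86, 2.87, 2.76 and 3.59 in heterozygous tumors, 4.94 in the homozygous tumor and 4.41 and 3.71 in normal pituitary.

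Of the 7 tested Eph receptors, Epha7 and Ephb1 were called, both lower. Epha7, a receptor for the A-type ephrins, showed the largest change of the 41 genes in heterozygous tumors, at 3.26, 3.78, 4.20 and 5.02 in tumors 1 to 4, 6.96 in the homozygous tumor and 6.97 and 6.58 in normal pituitary. The 4 heterozygous tumors spread over more than 1 log2 unit, yet none came near the normal samples, whereas the homozygous tumor lay between them. The heterozygous log2 fold change was -2.71 ± 0.43 (6.54-fold lower, adjusted p = 0.00517), and the homozygous one was 0.18 (95% interval -1.25 to 1.61). Without normal sample 1 the adjusted p of Epha7 was 0.0554 at a log2 fold change of -2.51. Ephb1, a receptor for B-type ephrins, was at 4.59, 4.40, 4.53 and 4.34 in heterozygous tumors, 5.12 in the homozygous tumor and 5.80 and 5.82 in normal pituitary (heterozygous log2 fold change -1.35 ± 0.12, adjusted p = 0.000569). Only the normal samples reached the median of all values for Ephb1, and all tumor samples lay under it.

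Epha5, at 3.67, 4.76, 4.50 and 6.27 in heterozygous tumors and 6.59 and 6.48 in normal pituitary, was lower in each of the 4 tumors but varied too much among them to pass (log2 fold change -1.73 ± 0.61, adjusted p = 0.0821). Epha5 was called without tumor 4 (log2 fold change -2.22, adjusted p = 0.0038) and with Xist as a covariate (-2.47, adjusted p = 0.0113). As with Epha7, tumor 1 was lowest and tumor 4 highest for Epha5. Ephb4, the receptor for ephrin-B2 on veins, had a log2 fold change of -0.84 ± 0.13 (adjusted p = 0.0045), under 2-fold. Epha2, Ephb3 and Ephb6 had log2 fold changes of -0.01, -0.03 and 0.30, none of which passed. The median over the 7 tested Eph receptors was -0.84, but Ephb1 and Ephb4 had to be lower to pass the filter, and without them the median of the other 5 was -0.03, with 1 called. That gene was Epha7, which passed the filter through the normal and homozygous arrays. All its heterozygous values lay under the median of all values. Under the filter, Epha3 was at 3.56, 3.91, 3.18 and 3.63 in heterozygous tumors, 4.16 in the homozygous tumor and 5.42 and 5.70 in normal pituitary, and Epha4 differed from normal by -0.65 on the log2 scale.

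Of the ephrins, Efnb2 was called. Efnb2, which encodes the membrane-spanning ephrin-B2 found on arteries and in many epithelia, was at 7.04, 7.80, 7.21 and 7.71 in heterozygous tumors, 7.83 in the homozygous tumor and 9.30 and 9.01 in normal pituitary. All 5 tumors were more than 1 log2 unit below both normal samples (heterozygous log2 fold change -1.71 ± 0.24, 3.27-fold lower, adjusted p = 0.00296). Efnb1, another B-type ephrin, was at 7.16, 7.48, 7.22 and 7.19 in heterozygous tumors and 7.95 and 7.91 in normal pituitary, a log2 fold change of -0.67 that had an adjusted p of 0.0102 but stayed under 2-fold. The A-type ephrins Efna1, Efna2 and Efna5, held to the membrane by a lipid anchor, had log2 fold changes of 0.25, 0.19 and -0.07, none of which passed. Efna3, Efna4 and Efnb3 stayed under the filter, at log2 differences of 0.03, -0.46 and -0.30.

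None of the 10 tested semaphorins was called in heterozygous tumors, and their median log2 fold change was 0.03. Sema3e, a secreted semaphorin that binds plexin D1 directly, was at 9.62, 9.63, 10.02 and 9.54 in heterozygous tumors, 9.40 in the homozygous tumor and 8.94 and 8.88 in normal pituitary. Every tumor was above both normal samples, with a log2 fold change of 0.79 ± 0.16 and an adjusted p of 0.0116, under 2-fold. Its receptor Plxnd1 was at 7.21, 7.19, 6.84 and 7.26 in heterozygous tumors, 6.46 in the homozygous tumor and 6.41 and 6.42 in normal pituitary (heterozygous log2 fold change 0.71, adjusted p = 0.0136, under 2-fold). Heterozygous tumors were thus above normal pituitary for both, and the homozygous tumor lay above normal by 0.05 for Plxnd1 and 0.50 for Sema3e on the log2 scale. Sema4f, a membrane-bound semaphorin, had a log2 fold change of 0.70 (adjusted p = 0.0151), under 2-fold. Another tested probe set of Sema4f was at 0.12 and did not pass (adjusted p = 0.533). Sema5a, a semaphorin with thrombospondin repeats, was at 6.77, 6.11, 7.37 and 6.57 in heterozygous tumors and 7.74 and 7.45 in normal pituitary, and its log2 fold change of -0.89 did not pass (adjusted p = 0.0813). The remaining tested semaphorins, Sema3a, Sema3c, Sema3f, Sema4a, Sema4d, Sema6a and Sema6d, lay between -0.35 (Sema6d) and 0.49 (Sema3c), and none passed. Sema3d and Sema7a, under the filter, differed from normal by 0.09 and -0.19 on the log2 scale.

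Of the 9 plexins and neuropilins, which receive semaphorin signals, Plxna2 was called. Plxna2, a plexin that signals for class 3 and class 6 semaphorins, was at 6.07, 6.58, 6.25 and 6.07 in heterozygous tumors, 7.26 in the homozygous tumor and 7.78 and 7.43 in normal pituitary. The 4 heterozygous tumors lay close together and below every other sample, with the homozygous tumor just under the normal samples (heterozygous log2 fold change -1.36 ± 0.18, adjusted p = 0.00255). Nrp2, the co-receptor for several class 3 semaphorins, was at 6.09, 6.60, 6.17 and 6.03 in heterozygous tumors, 6.62 in the homozygous tumor and 7.21 and 7.17 in normal pituitary. On the log2 scale the heterozygous change of -0.97 ± 0.17 (adjusted p = 0.00805) fell just short of 2-fold, and it passed without tumor 2 (-1.09, adjusted p = 0.00377) and with Xist as a covariate (-1.05, adjusted p = 0.0119). The other neuropilin, Nrp1, had one of 0.08 (adjusted p = 0.788). Plxna3, a further plexin for class 3 semaphorins, had a log2 fold change of -0.66 (adjusted p = 0.0102), under 2-fold. Plxna1, Plxnb1, Plxnb2 and Plxnc1 lay between -0.49 and -0.12, and none passed. The median over this family was -0.44.

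**Figure D2:**
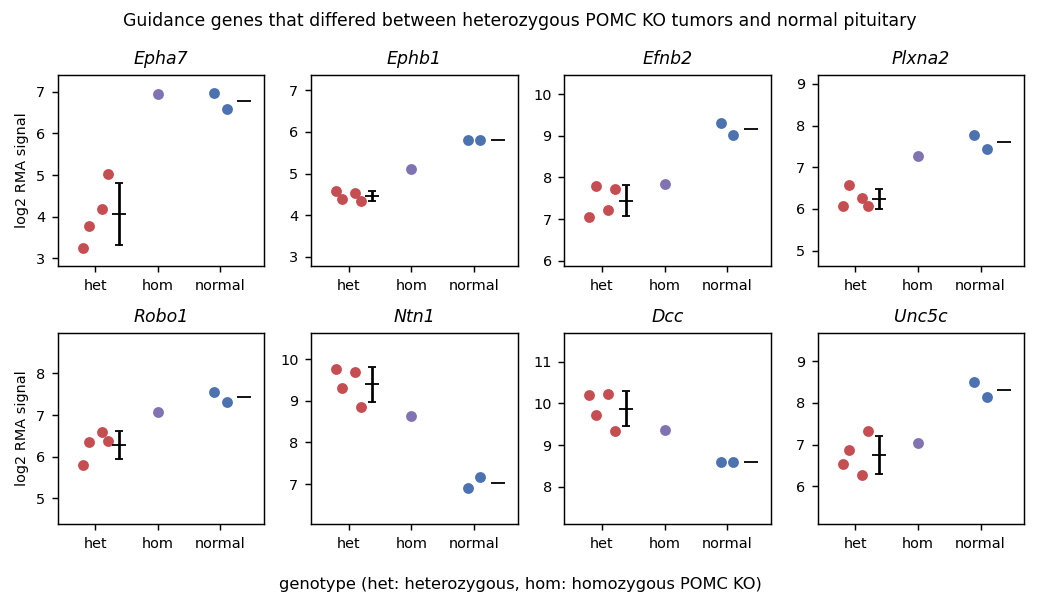
Each panel shows the log2 RMA signal of 1 of the 8 genes called in heterozygous tumors, with a point for each of 4 heterozygous tumors, the homozygous tumor and 2 normal samples. Bars are the mean ± SD of the heterozygous tumors, dashes mark the normal mean, and all panels span the same number of log2 units. Ntn1 and Dcc stand above normal pituitary in all tumors, and the homozygous tumor is at the normal level for Epha7.

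By the probe sets that stand for the genes, the homozygous tumor had no guidance gene called against normal pituitary, where 2.73% of all genes tested were called (1.43% higher and 1.3% lower). By limma 10 of the 41 genes had an unadjusted p under 0.05, as did 2360 of all 12305. With the 12 arrays taken as separate samples 4 were called (Ntn1 and Sema3a higher, Efnb2 and Unc5c lower). That setting counts the near-identical arrays of the homozygous tumor as separate samples, and its share over all genes is not given here. The values below count each pair as 1 sample. The nearest to the threshold was Ntn1, with a log2 fold change of 1.61 (95% interval 0.74 to 2.47, adjusted p = 0.0731). Ephb1 was at -0.69 (-1.08 to -0.31, adjusted p = 0.0806), Efnb2 at -1.32 (-2.10 to -0.53, adjusted p = 0.0942) and Unc5c at -1.28 (-2.22 to -0.34, adjusted p = 0.154). Sema3a, the class 3 semaphorin that repels sensory axons, was at 7.23, 7.01, 7.86 and 7.17 in heterozygous tumors, 8.19 in the homozygous tumor and 6.58 and 7.30 in normal pituitary (homozygous log2 fold change 1.25, 0.32 to 2.18, adjusted p = 0.157). The median log2 fold change of the 41 genes was -0.19, beside -0.03 over all genes tested.

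Set against the heterozygous tumors directly, the homozygous tumor also had no gene called (0.276% of all genes tested were, 0.228% higher and 0.0488% lower), and 8 of the 41 had an unadjusted p under 0.05 by limma, as did 1299 of all 12305. With the 12 arrays as separate samples 2 were called, Epha7 and Plxna2. This setting again counts near-identical arrays as separate samples, and its share over all genes is not given here. The values below count each pair as 1 sample. For Epha7 the homozygous tumor exceeded the heterozygous mean by 2.89 on the log2 scale (95% interval 1.59 to 4.20, adjusted p = 0.158), and for Plxna2 by 1.02 (0.47 to 1.57, adjusted p = 0.219). For Ephb1, Efnb2, Plxna2, Robo1 and Ntn1, all called in heterozygous tumors, the homozygous value lay between the heterozygous and the normal values. For Unc5c and Dcc it lay within the heterozygous range. These genes were called on the same heterozygous and normal samples. How often the homozygous value lies in between over all genes tested was not counted. The intervals of the differences between homozygous and heterozygous tumors are wide, and the comparison shares its samples with those against normal pituitary.

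**Figure D3:**
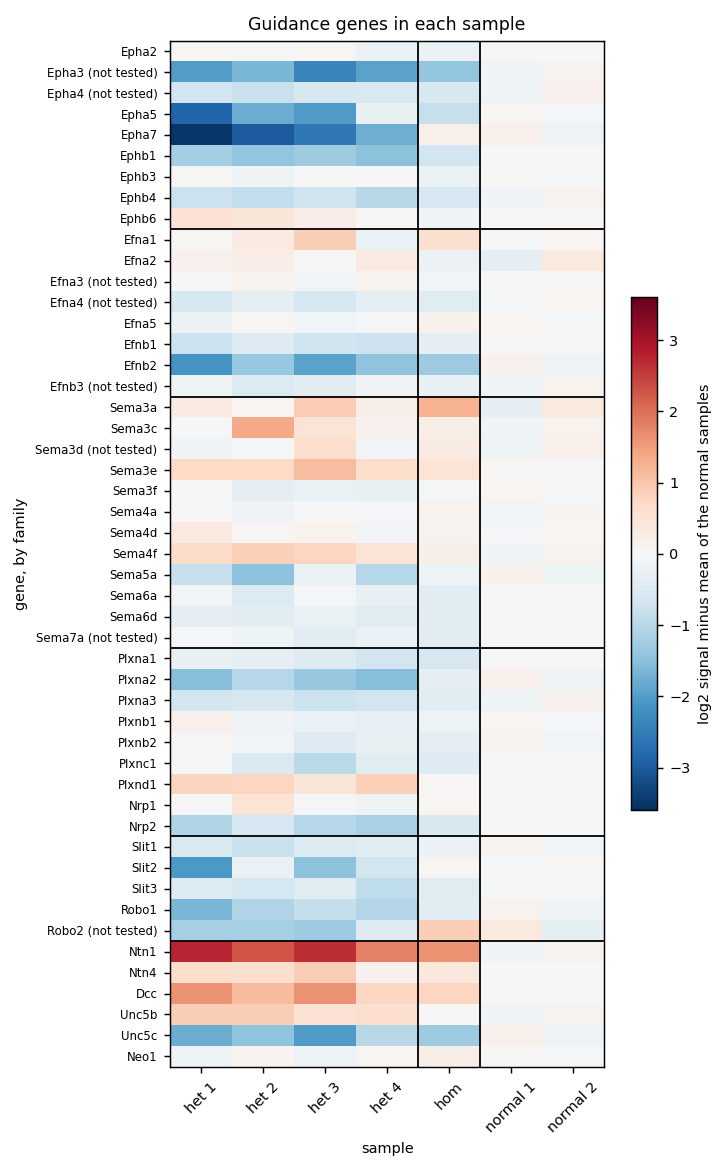
The heat map shows each of the 49 guidance genes on the array, by family, in 4 heterozygous tumors (het), the homozygous tumor (hom) and 2 normal samples. Color is the log2 RMA signal minus the mean of the normal samples. Ntn1 and Dcc are above normal in every tumor column, and Epha5, Epha7 and Slit2 are lower in heterozygous tumors 1 and 3 than in tumor 4 and the homozygous tumor.

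Other probe sets of the called genes gave a further reading of each. Of 24 guidance genes with at least 2 tested probe sets, 19 had the same sign in all, and so did the 4 called genes among them. Efnb2 had 2 more tested probe sets, with heterozygous log2 fold changes of -1.91 (adjusted p = 0.000636) and -1.12 (adjusted p = 0.00181). The first of these was also called in the homozygous tumor, at -1.79 (adjusted p = 0.0187). Unc5c had 1 more, at -1.46 (adjusted p = 0.00895). A further probe set of Plxna2 was at -1.57 (adjusted p = 0.0004), and one at -0.82 (adjusted p = 0.00403) stayed under 2-fold. The first of these was also called higher in the homozygous than in the heterozygous tumors, by 1.22 (adjusted p = 0.0366). Dcc had one at 1.26 (adjusted p = 0.00993) and one at 0.22 that did not pass (adjusted p = 0.442). The other probe sets of Epha7, Robo1 and Ntn1 were under the filter, and Ephb1 had a single probe set, so these calls rest on 1 probe set each. Of the genes with opposite signs, Sema3f read -0.22 by its brightest probe set, and 0.68 (adjusted p = 0.0343) and 0.80 (adjusted p = 0.0248) by its other 2, both under 2-fold.

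Guidance genes outside the 50 were counted from separate lists. Of 28 other guidance ligands and receptors, 17 were tested, and in heterozygous tumors 2 were called higher and 3 lower, which is 29.4% beside the 10.1% of all genes tested. Rgmb, a repulsive guidance molecule and ligand of Neo1, had a log2 fold change of 1.54 (adjusted p = 0.00726), and Sema4c, a membrane-bound semaphorin, one of 1.37 (adjusted p = 0.000965). Flrt3, a ligand of Unc5 receptors, was at -1.24 (adjusted p = 0.00731), Dscam, an adhesion molecule and netrin receptor, at -1.15 (adjusted p = 0.00143) and Rgma, the other repulsive guidance molecule, at -1.07 (adjusted p = 0.00526). Rgma and Ntng2 passed the filter through the normal arrays alone, so they had to be lower, and without them 4 of 15 were called. Sema4c was also called in the homozygous tumor (log2 fold change 1.09, adjusted p = 0.039), the only one of these 17. Of 42 tested intracellular effectors, which carry guidance signals to actin and microtubules, heterozygous tumors had 1 called higher and 4 called lower, and the homozygous tumor had 0. This is 11.9%, near the 10.1% of all genes tested, and the genes below are named as single values. Tiam1, an activator of the GTPase Rac, was at 1.13 (adjusted p = 0.000969). Enah, which extends actin filaments, was at -1.64 (adjusted p = 0.0026), Dock1, another Rac activator, at -1.63 (adjusted p = 0.00193), Ablim3, an actin-binding protein, at -1.43 (adjusted p = 0.0109) and Mical3, of a family that oxidizes actin downstream of plexins, at -1.08 (adjusted p = 0.00209). Ablim3 and Dpysl4 passed the filter through the normal arrays alone and had to be lower, and without them 4 of 40 were called.

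Markers of other cell types moved with these groups. In bulk tissue, fewer cells of a type and less RNA per cell cannot be told apart. Macrophage markers were called higher in heterozygous tumors for 8 of 11 tested genes, with a mean log2 signal over the list of 7.82 to 8.39 in heterozygous tumors, 7.60 in the homozygous tumor and 6.45 and 6.71 in normal pituitary, and Itgam under the median in all 12 arrays. Proliferation markers were higher for 7 of 7, at 9.25 to 10.05, 9.19, and 7.19 and 7.51 in the same order. Both lists were higher in all tumors than in normal pituitary. Of all genes tested, 5.57% were called higher in heterozygous tumors.

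Other marker lists held members that went opposite ways. Of 10 tested neuronal markers 3 were called lower in heterozygous tumors, Avp (-2.98), Oxt (-2.69) and Nefm (-1.57), and Rbfox3 (1.30) was called higher. Syt1 was at 0.95 (adjusted p = 0.00702), under 2-fold, and Tubb3 and Snap25 had positive values of 0.41 and 0.31 that did not pass. Nefl (-2.92), Slc17a6 and Map2 (-0.34) had negative values that did not pass either. In all, 6 of the 10 were negative in heterozygous tumors, and the median log2 fold change was -0.95. The mean over the list was 7.79 to 8.25 in heterozygous tumors, 9.09 in the homozygous tumor and 9.02 and 9.03 in normal pituitary, with Gad1 under the median in all arrays. In the homozygous tumor single members lay on both sides of normal, from -1.07 (Nefl) to 1.10 (Slc17a6), so a mean near normal does not place its members there. Glial markers had 2 of 9 called lower (means 6.88 to 7.32, 7.01, and 7.40 and 7.62), with Gfap and Rax under the median throughout. Pituitary identity markers had 3 of 10 lower, Fshb (-5.89), Lhb (-4.84) and Tshb (-3.90), and 1 higher, Pax7 (1.48). Cga (-2.19), Gh (-0.70) and Prl (-0.25) had negative values that did not pass. Pitx1 (0.73) stayed under 2-fold, and Tbx19 (0.33) and Pomc (0.16) had positive values that did not pass. The means over this list were 10.39 to 11.61, 11.02 and 12.56 in both normal samples, over members that went opposite ways. Without Pomc, the targeted gene, the means of this list were 9.84 to 11.21 in heterozygous tumors, 11.44 in the homozygous tumor and 12.28 in both normal samples. Endothelial markers had 1 of 10 lower (Tek, -1.42), at 5.85 to 6.17, 6.42, and 6.22 and 6.24, with Vwf under the median in all arrays, and stromal markers had 1 higher and 3 lower of 10, at 8.33 to 9.22, 8.29, and 8.68 and 8.78. The part of these cell types in the changes of the guidance genes was not tested.

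**Figure D4:**
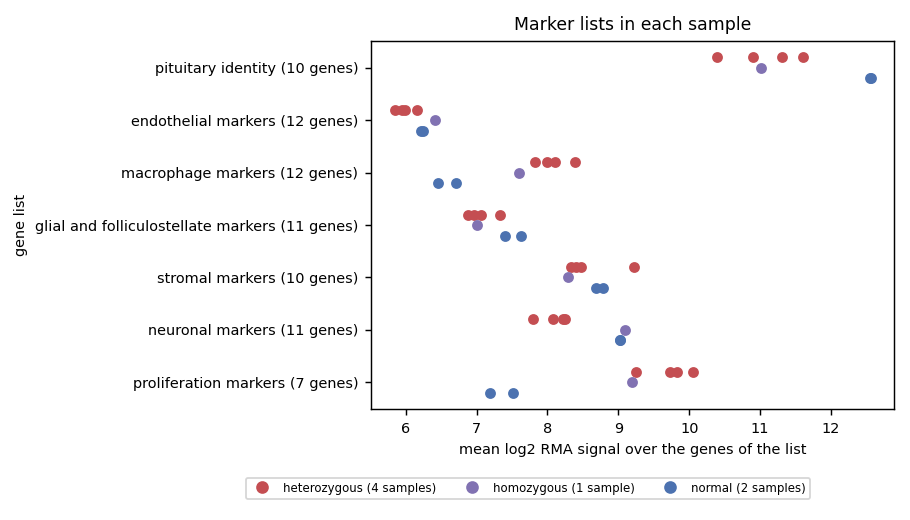
The plot shows the mean log2 RMA signal over the genes of each marker list in 4 heterozygous tumors, 1 homozygous tumor and 2 normal samples, 1 point per sample. Macrophage and proliferation lists are higher in all tumors than in normal pituitary, and the neuronal mean is lower in heterozygous tumors, over members that go opposite ways. The pituitary identity list includes Pomc, which lowers its homozygous point, and its members also go opposite ways.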

How the data were processed

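The deposited values of 12 arrays are log2 signals that the authors made with RMA. The submitters' processing notes give Affymetrix Expression Console as the tool and state no version. Of 45101 probe sets, 64 were controls, 34945 named 1 gene, 932 several and 9160 none in the platform annotation, whose symbols were kept. The methods' filter on detection calls could not be applied to these values, so a probe set was tested where 2 or more arrays reached the median over all arrays (5.74). This kept 24486 probe sets and 12305 genes. RMA places all arrays on 1 distribution, so differences are relative to it. Arrays of a tumor pair, inferred from their likeness and not from the labels, were averaged, which left 7 samples and 4 residual degrees of freedom. Limma 3.58.1 in R 4.3.3 fitted the 3 groups together with empirical Bayes moderation, and p-values were adjusted over all probe sets tested by Benjamini-Hochberg. A call needed an adjusted p under 0.05 and a change over 2-fold, the thresholds of the methods. Array numbers shared between groups did not pair samples: deviations of same-numbered samples correlated at -0.00261 for normal and homozygous, -0.02 for normal and heterozygous, and 0.07 for homozygous and heterozygous.

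Values per sample were given for called genes and for the 2 largest changes among genes not called in each family, and the other genes in brief. Outside this rule, Sema3a, Sema3f, Epha3 and Robo2 were described after their values were seen. The guidance genes were given as a list and not picked by their values. This list, the lists of other genes and the tests were set with earlier results of these data known. The fit was tested on simulated data. Against normal, it recovered 76% of added log2 changes of 1.5 for heterozygous and 57% for homozygous tumors. For changes of 2.5 it recovered 96% and 84.5%. Real changes in the homozygous tumor can therefore go uncalled. Promoter sequences were those of RefSeq (GRCm38.p6). The alternatives tried were the 12 arrays as separate samples, with the pair as a random block or with a replicate block, other filters and scalings, other probe set rules, Xist as a covariate, a one-way test over the genotypes as in the methods, and each sample left out in turn.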

Additional observations from a re-analysis of the deposited data

Results flagged for a closer look

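Among the 4 heterozygous tumors, 1 stood far from the others in 4 of the 50 genes checked for this, the 49 guidance genes on the array and Pomc. Tumor 4 was low for Epha2 (5.72), tumor 3 was low for Plxnd1 (6.84), tumor 4 was high for Robo2 (3.59), and tumor 3 was high for Sema3d (5.58). Chance alone places about 1 in 20 such groups past this limit, and Robo2 and Sema3d lay under the filter on low values. Pomc differed between the genotypes, with the homozygous tumor below the heterozygous mean by -8.07 on the log2 scale (limma adjusted p = 4.91e-07), as the label of a homozygous POMC knockout gives it.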

How the results depend on the processing

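In heterozygous tumors 8 guidance genes were called, and 4 to 9 when 1 array pair or 1 normal sample was left out. The lowest count came without normal sample 1, where Dcc, Epha7, Robo1 and Unc5c were no longer called. The mean of all probe sets of a gene gave 5 (without Dcc, Epha7 and Robo1), and the adjusted p alone gave 18. Efnb2, Plxna2 and Ntn1 were called under every alternative run for heterozygous tumors, and so was Ephb1 wherever it was tested. With Xist as a covariate 11 were called in heterozygous tumors, with Epha5, Nrp2 and Slit2 added. A filter that required 6 arrays left Epha7 and Ephb1 untested. In the homozygous tumor 0 were called, but 4 with the 12 arrays as separate samples, 3 with the pair as a random block, 4 with Xist as a covariate, 4 by the one-way test and 1 by the mean of all probe sets, and 0 to 1 with samples left out (Ntn1, without heterozygous arrays 7 and 8). Between homozygous and heterozygous tumors 0 were called, but 2 with separate arrays, 1 with the random block and 2 by the one-way test, and 0 to 1 with samples left out (Epha7, without heterozygous arrays 7 and 8). In the replicate block on 12 arrays, numbers 3 to 8 occur in heterozygous arrays alone and the shared numbers did not pair the samples. Its heterozygous comparisons therefore rest on arrays 1 and 2, which are tumor 1, and its counts of calls are not given. The random block models the likeness of paired arrays. Other settings on 12 arrays count near-identical arrays as separate samples, which narrows the spread. The one-way test gives 1 p-value per probe set over all 3 genotypes. Its counts for the homozygous tumor and between the tumor genotypes are therefore not tests of those comparisons alone. The number of samples, with 2 normal and 1 homozygous, limits the precision, and no sign of a named gene's change turned for a called value under any of these settings. The share of all genes called under each setting is not given beside these counts. A gain or loss of calls is therefore not read as particular to the guidance genes.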

Other observations

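Of the 8 guidance genes under the filter on low values, 2 were called in heterozygous tumors when no filter was set. Epha3, a receptor for A-type ephrins, had a log2 fold change of -1.99 ± 0.20 (SE, limma adjusted p = 0.00105), and Robo2, a slit receptor, one of -1.04 ± 0.28 (adjusted p = 0.0444). Both lay under the median of all values in every one of the 12 arrays. Another probe set of Efnb1 passed at -1.01 (adjusted p = 0.00244), while the brighter one that stood for the gene was at -0.67.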
